A study of Mus musculus with 12 samples.

Results

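The 10 genes described here encode kinases of the MAP kinase cascade that relays the signal of Toll-like receptor 4 (TLR4), the receptor for bacterial lipopolysaccharide (LPS). They were chosen by name from pathway knowledge, with earlier results of these data known. The list holds the MAP3K gene Map3k8 and the MAP2K genes Map2k1, Map2k2, Map2k3, Map2k4, Map2k6 and Map2k7. It also holds the MAP kinase genes Mapk14 and Mapk8 and the effector kinase gene Mapkapk2. All 10 were found among the 38215 genes of the table, and all 10 passed the filter on low counts that left 14983 genes for testing. The study asked how SF3a1, a subunit of the SF3a complex that the U2 snRNP needs to recognise the 3′ end of introns, shapes RNA levels and splicing in LPS-treated macrophages. The cells were RAW264.7, a mouse macrophage line of the BALB/c strain, transfected with nontargeting control siRNA or with siRNA against Sf3a1 for 24 h. Each siRNA group was then split into cells without LPS and cells given LPS at 20 ng/ml for 4 h, which gives 4 groups of 3 replicates and 12 libraries of polyadenylated RNA. Since every library comes from 1 cell line and 1 knockdown of a general splicing factor, the values describe that model.

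LPS bound by TLR4 activates MAP3K enzymes, which phosphorylate MAP2K enzymes, which in turn phosphorylate MAP kinases. In macrophages the MAP3K TPL2, the product of Map3k8, feeds the ERK arm through MEK1 and MEK2 (Map2k1, Map2k2). MKK3 and MKK6 (Map2k3, Map2k6) act on p38, of which Mapk14 encodes the alpha form, and p38 activates MK2 (Mapkapk2), a kinase that governs the stability and translation of cytokine mRNAs. MKK4 and MKK7 (Map2k4, Map2k7) act on JNK, of which Mapk8 encodes JNK1. The signal itself runs through phosphorylation, which RNA counts do not measure, so the values below are levels of mRNA only.

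The reads counted on genes ranged from 20659511 to 40840082 per library with control siRNA and no LPS, from 13021502 to 41091887 with control siRNA and LPS, from 12746019 to 27789833 with SF3a1 siRNA and no LPS, and from 17174058 to 36506558 with SF3a1 siRNA and LPS. Levels are given as CPM, counts per 1000000 reads on genes after TMM scaling, with the SD over n = 3 libraries. Fold changes, standard errors (SE) and adjusted p-values are from the quasi-likelihood test of edgeR, the p-values adjusted by the Benjamini-Hochberg method over the 14983 genes, and a gene was called at an adjusted p of 0.1 or less. Sf3a1 itself fell from 191 ± 22.2 to 28.9 ± 2.78 CPM without LPS (log2 fold change −2.73, SE 0.204, edgeR adjusted p = 1.14e-05) and from 167 ± 23.9 to 34.0 ± 9.72 CPM with LPS (−2.30, SE 0.200, edgeR adjusted p = 1.47e-05). The cell line showed its label: all 8 macrophage markers had a median of at least 111 CPM (Adgre1), up to 6388 CPM for Lyz2. None of the 3 markers each of T cells, B cells, neutrophils, fibroblasts and epithelium exceeded a median of 1 CPM, the highest being Col1a1 at 0.0464 CPM. In RNA from whole cultures, a lower level in every cell and a smaller share of expressing cells cannot be told apart.

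To compare levels between genes, CPM was divided by the length of each gene's merged exons in kilobases. In control cells without LPS, Mapkapk2 had the highest level at 229 CPM per kilobase, followed by Map2k3 at 105, Map2k2 at 54.8 and Map2k1 at 45.7. Mapk14 at 28.4 and Map2k7 at 22.4 CPM per kilobase overlapped between libraries, while Map2k4 at 9.58, Mapk8 at 3.63, Map3k8 at 1.16 and Map2k6 at 0.520 were each separate from their neighbours in the order. The cascade was thus measured most abundantly at MK2 and MKK3, and least at TPL2 and MKK6. After LPS in control cells, Map2k1 reached 127 CPM per kilobase, which overlapped Map2k3 at 112, and Map3k8 at 5.97 stood above Mapk8 at 3.31. With SF3a1 siRNA and no LPS, Map2k3 at 214 CPM per kilobase overlapped Mapkapk2 at 233. With SF3a1 siRNA and LPS, Mapkapk2 at 660 CPM per kilobase was again apart from Map2k3 at 250, and the neighbours Map2k1 at 46.7, Map2k2 at 40.2, Mapk14 at 35.2 and Map2k7 at 27.7 overlapped each other in turn.

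**Figure D1:**
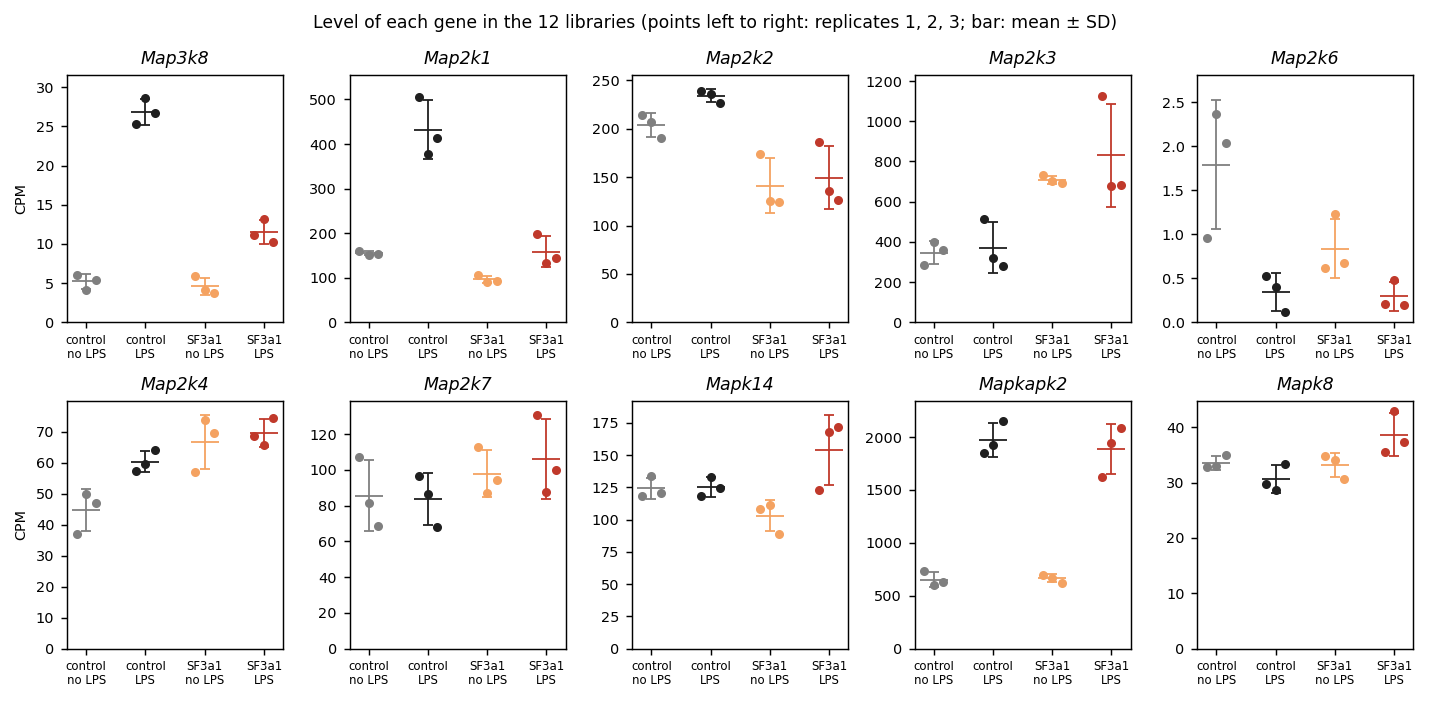
Level of each of the 10 genes in CPM (linear axis from 0) in the 12 libraries, with points for replicates 1, 2 and 3 from left to right in each group and bars for the mean and SD. Map3k8 and Map2k1 stand highest in the control LPS libraries, Map2k3 is higher in both SF3a1 groups than in the matched control groups, and Mapkapk2 follows LPS with either siRNA.

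With control siRNA, LPS changed 5 of the 10 genes, 4 upward and 1 downward, where 32.1% of all genes tested were called (13.8% higher and 18.3% lower). With SF3a1 siRNA, LPS raised 4 of the 10, where 10.7% of all genes were called (6.60% higher and 4.06% lower). Without LPS, SF3a1 siRNA changed 4 of the 10, 2 upward and 2 downward, where 33.8% of all genes were called (13.7% higher and 20.1% lower). With LPS, it changed 5 of the 10, 2 upward and 3 downward, where 38.8% of all genes were called (18.4% higher and 20.4% lower). The median log2 fold change over the 10 genes was 0.15, 0.22, −0.10 and 0.07 in these 4 comparisons, against −0.02, 0.01, −0.02 and −0.04 over all genes tested. With the replicate numbers as a block in the fit, 5, 5, 5 and 7 of the 10 were called, where 43.9%, 20.8%, 47.1% and 50.9% of all genes were. The libraries of the 2 groups did not overlap for 6, 6, 5 and 6 of the 10, and for 40.2%, 24.8%, 45.6% and 39.1% of all genes tested. The comparisons share groups of libraries, so they are not independent of one another.

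**Figure D2:**
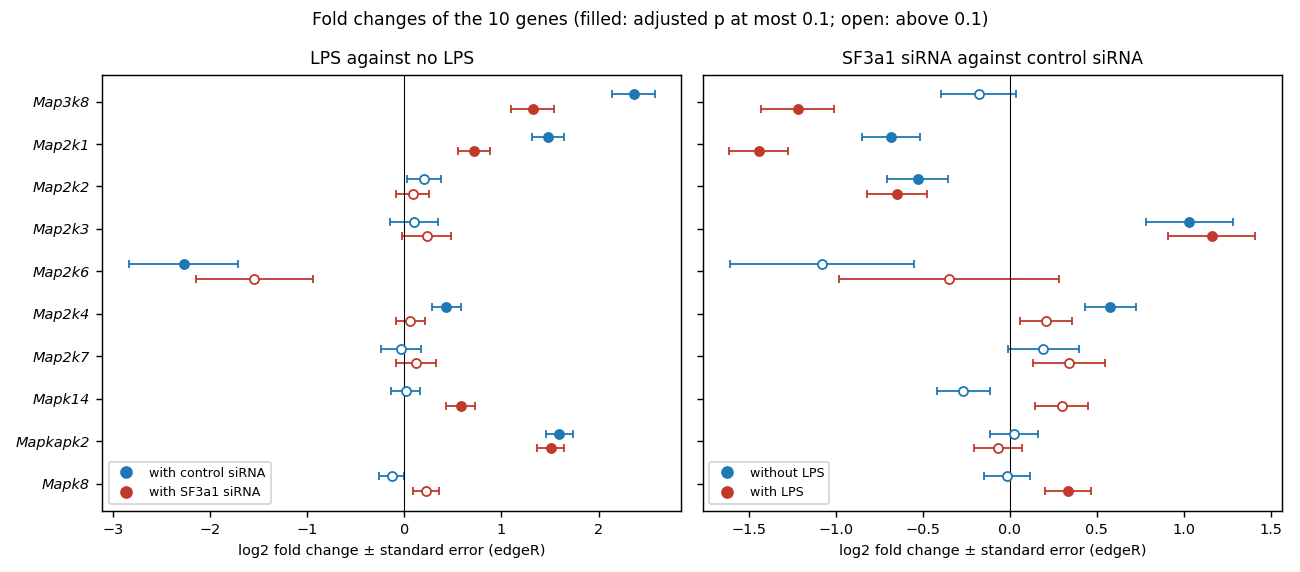
Log2 fold change with its SE for the 10 genes, on the left for LPS against no LPS with each siRNA and on the right for SF3a1 siRNA against control siRNA without and with LPS. Filled points have an adjusted p of 0.1 or less, and Map2k1, Map2k2 and Map2k3 are the genes filled in both SF3a1 comparisons.

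Map3k8, the gene of TPL2, lies on mouse chromosome 18 (mm10, chr18:4331327-4353015, reverse strand). It was measured in control cells without LPS at 6.08, 4.16 and 5.41 CPM in replicates 1, 2 and 3. After LPS the control libraries held 25.3, 28.6 and 26.7 CPM. With SF3a1 siRNA the values were 5.87, 4.07 and 3.79 CPM without LPS and 11.2, 13.2 and 10.2 CPM with LPS. The libraries of both LPS groups were all above those without LPS, and all 3 SF3a1 libraries with LPS were below the 3 control libraries with LPS. LPS raised Map3k8 with control siRNA (log2 fold change 2.36, SE 0.219, edgeR adjusted p = 5.52e-06) and with SF3a1 siRNA (1.32, SE 0.217, edgeR adjusted p = 0.00195). SF3a1 siRNA lowered it with LPS to 42.9% of control (−1.22, SE 0.211, edgeR adjusted p = 0.00095). Without LPS the groups overlapped (−0.18, edgeR adjusted p = 0.599).

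Map2k1, the gene of MEK1 (chr9:64185770-64253631, reverse strand), was at 160, 152 and 153 CPM in control cells without LPS and at 506, 377 and 413 CPM after LPS. With SF3a1 siRNA it was at 106, 89.6 and 93.7 CPM without LPS and at 197, 134 and 145 CPM with LPS. No library of the SF3a1 groups overlapped the matched control group. LPS raised Map2k1 with control siRNA (log2 fold change 1.48, SE 0.168, edgeR adjusted p = 3.21e-05) and with SF3a1 siRNA (0.72, SE 0.166, edgeR adjusted p = 0.0188). SF3a1 siRNA lowered it without LPS (−0.69, SE 0.166, edgeR adjusted p = 0.00868) and with LPS to 36.7% of control (−1.45, SE 0.168, edgeR adjusted p = 8.33e-05). The highest of the 3 values in each LPS group was replicate 1.

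Map2k2, the gene of MEK2 (chr10:81105915-81133975, forward strand), was at 214, 207 and 191 CPM in control cells without LPS and at 239, 236 and 227 CPM with LPS. In SF3a1 cells the level was at 174, 125 and 124 CPM without LPS and at 187, 136 and 126 CPM with LPS. All SF3a1 libraries were below the matched control libraries, with replicate 1 nearest to them. SF3a1 siRNA lowered Map2k2 without LPS (log2 fold change −0.53, SE 0.173, edgeR adjusted p = 0.0381) and with LPS (−0.65, SE 0.173, edgeR adjusted p = 0.0132). Without LPS that call was lost when any control replicate (edgeR adjusted p = 0.172, 0.157 and 0.110 without replicates 1, 2 and 3) or SF3a1 replicate 2 (0.152) or 3 (0.150) was left out, and the adjusted p ran from 0.00211 to 0.172 over all alternatives. Map2k2 was not called for LPS with control siRNA (0.20, edgeR adjusted p = 0.469), although its libraries did not overlap there.

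The balance of the 2 MEK genes is given per length, with no test. On this scale, the level of Map2k1 was 0.835 ± 0.0396 (SD, n = 3) times that of Map2k2 in control cells without LPS, with libraries from 0.806 to 0.881. This ratio was 2.02 ± 0.285 in control cells with LPS, from 1.75 to 2.32. Under SF3a1 siRNA it was 0.760 ± 0.0820 without LPS and 1.17 ± 0.0903 with LPS, where the 3 libraries at 1.16, 1.08 and 1.26 lay between those of the 2 control groups.

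Reads were also counted on exon bins, the pieces into which overlapping transcripts cut a gene, in 11 of the libraries (replicate 3 of control cells with LPS was not analysed here for bins). The 10 genes held 218 of the 354841 bins. Usage is a bin's share of all bin counts of its gene, tested with edgeR's diffSpliceDGE and adjusted over the 153624 bins tested. Of 153 bins of these genes that were tested, 2 were called with SF3a1 siRNA without LPS, where 0.626% of all bins tested were called, and 1 with LPS, where 0.492% were called. Both lie inside an intron of at least 1 annotated transcript, a class that also takes in exons which other transcripts of the gene skip, and of which 20555 bins were tested in all genes and of which 2.91% were called with SF3a1 siRNA in cells without LPS and 1.98% in cells with LPS, and 0.0778% and 0.0243% for LPS with control and SF3a1 siRNA. Of 25 such bins tested in these genes, 2 were called for SF3a1 siRNA without LPS, 1 with LPS, and 0 for LPS with either siRNA, while 0 of their 82 bins outside that class were called in any of these. The 25 include well-used alternative exons, such as Map2k3 bin 11 at a mean usage of 9.21% and Map2k4 bin 4 at 7.31% in control cells without LPS, so the class is not a measure of retained introns. The other tested bins lay in genes whose bin coordinates could not be rebuilt.

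The first of the 2 is bin 9 of Map2k2, 132 bases directly before an exon (chr10:81118977-81119108). In the annotation it belongs to the nonsense-mediated decay transcript Map2k2-201, which starts that exon at a 3′ splice site further upstream, and to the intron of Map2k2-202, Map2k2-206 and Map2k2-207. The sequences are shown because SF3a1 acts at the 3′ ends of introns. They come from the GENCODE vM21 transcripts of GRCm38 on the forward strand, 5′ to 3′. In the first line the capitals mark the first stop codon in the reading frame of Map2k2-202. In the others, each 30 bases that end at a 3′ splice site, the capitals mark the 13 bases from −17 to −5, where the polypyrimidine tract lies.
Map2k2 bin 9, first base to stop codon, chr10:81118977-81119060: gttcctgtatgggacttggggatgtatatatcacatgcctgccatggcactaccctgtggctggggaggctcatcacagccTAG
Map2k2 upstream site used by Map2k2-201, chr10:81118947-81118976: tgaaatacagtgtCCATGTGCTTGCTgcag
Map2k2 usual site after bin 9, chr10:81119079-81119108: acaggctacccagCTCTGACCTTCCTgtag
Map2k2 site of a later exon at bin 17, chr10:81121016-81121045: cagttatgtgttcTTTGTACTGTCAAgtag
Map2k2 site of a later exon at bin 22, chr10:81122537-81122566: agtaacatccatgTCTTCTCCCTCCCccag
The bin's length is a multiple of 3 and leaves the downstream frame intact, but codon 28 of the bin is a stop. The annotated protein of Map2k2-201 has 203 codons against 400 in Map2k2-202. In the 13 bases the upstream site held 38.5% T and 30.8% C, and the usual site 38.5% T and 46.2% C. The sites of the later exons at bins 17 and 22 held 46.2% T with 15.4% C and 38.5% T with 61.5% C. The site directly before bin 16, used by Map2k2-207 and not shown above, held 61.5% T with 15.4% C. The sites of the exons at bins 12 to 14, 18 and 23 were not analysed here.

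Usage of Map2k2 bin 9 was 0.102%, 0.119% and 0.0129% in control replicates 1, 2 and 3 without LPS, and 0.0642% and 0.0631% in the 2 control libraries with LPS. In SF3a1 cells it was 0.632%, 0.297% and 0.508% without LPS and 0.384%, 0.576% and 0.439% with LPS. All 6 SF3a1 libraries were above all 5 control libraries. Even so, the bin stayed under 1% of the gene's counts everywhere and rested on 1 to 53 reads per library. The control libraries held 1 to 17 reads, below the cutoff of the low-count filter once scaled to library size. The bin therefore entered the test through SF3a1 libraries alone. The calls below and this gap thus rest on the same libraries that let the bin through. The usage rose 6.11-fold without LPS (log2 change 2.61, diffSpliceDGE adjusted p = 0.00276) and 7.04-fold with LPS (2.82, diffSpliceDGE adjusted p = 0.0236). Without LPS the call was lost without control replicate 3 (diffSpliceDGE adjusted p = 0.151) or SF3a1 replicate 1 (0.113), and with LPS without control replicate 1 (0.821) or 2 (0.195) or SF3a1 replicate 2 (0.142), by limma-voom (0.186) and with replicates 2 and 3 only (0.212). Over all alternatives the adjusted p ran from 7.98e-05 to 0.151 without LPS and from 0.000796 to 0.821 with LPS. Where control LPS kept 1 library, that library was assumed to vary like the other groups.

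The neighbouring bin 8 of Map2k2, the 365 intronic bases before bin 9 (chr10:81118612-81118976), was too low to be tested. Its reads, summed over 3 and 2 libraries, were 7 and 6 in control cells without and with LPS, and 25 and 19 over 3 libraries each with SF3a1 siRNA. Its mean usage, which takes account of the gene's own counts, was 0.0163% and 0.0266% in control cells without (n = 3) and with LPS (n = 2), and 0.157% and 0.114% with SF3a1 siRNA (n = 3 each). The exonic bin 10 behind it had a mean usage between 5.41% and 5.86% in the 4 groups. The share of reads that fell on no annotated gene was 17.8% to 19.8% in the control libraries, 20.8% to 27.2% with SF3a1 siRNA without LPS and 18.2% to 21.4% with SF3a1 siRNA and LPS, and its part in the bin usage was not tested.

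**Figure D3:**
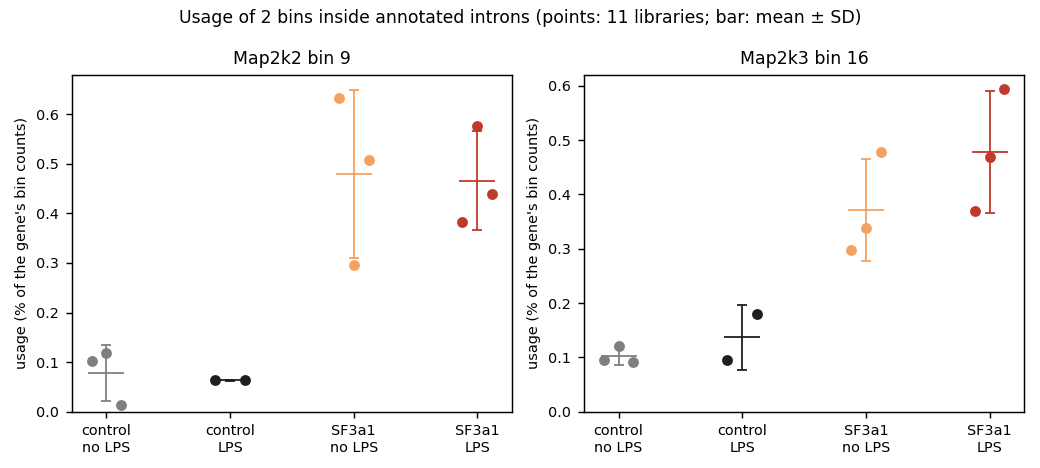
Usage of Map2k2 bin 9 and Map2k3 bin 16, as a percent of all bin counts of the gene (linear axis from 0), in 11 libraries with bars for the mean and SD. All SF3a1 libraries are above all control libraries for both bins. Map2k2 bin 9 passed the filter on low counts through SF3a1 libraries alone.

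Map2k3, the gene of MKK3 (chr11:60932033-60952811, forward strand), was at 283, 399 and 358 CPM in control cells without LPS and at 516, 319 and 277 CPM with LPS. With SF3a1 siRNA it was at 730, 701 and 695 CPM without LPS and at 1126, 678 and 684 CPM with LPS. The SF3a1 libraries lay above all matched control libraries. SF3a1 siRNA raised Map2k3 without LPS (log2 fold change 1.03, SE 0.251, edgeR adjusted p = 0.00876) and 2.24-fold with LPS (1.16, SE 0.251, edgeR adjusted p = 0.00393). LPS with control siRNA left the groups overlapping (0.10, edgeR adjusted p = 0.827), and replicate 1 went the other way from the rest. With replicates 2 and 3 only, a choice made after seeing the data, the change was −0.34 (edgeR adjusted p = 0.0832), and without replicate 1 of control cells with LPS it was −0.22. Over the alternatives the edgeR adjusted p of this comparison ran from 0.0832 to 0.997. In both LPS groups and with SF3a1 siRNA without LPS, replicate 1 had the highest Map2k3 value. In control cells without LPS it had the lowest. The replicate 1 libraries of every group were sequenced in 2 runs, and the part of this in the Map2k3 values was not tested.

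Map2k3 holds the other called bin, bin 16, which is 496 bases directly before an exon (chr11:60950662-60951157). The 30 bases that end at that exon's 3′ splice site are shown with the same capitals as above.
Map2k3 site after bin 16, chr11:60951128-60951157: tgagcctgtcttcACTGCCCTCTTTCctag
The 13 bases held 38.5% T and 46.2% C. Usage of bin 16 was 0.0951%, 0.121% and 0.0915% in control replicates without LPS, and 0.0946% and 0.179% in the 2 control libraries with LPS. In SF3a1 cells the level was 0.299%, 0.338% and 0.478% without LPS and 0.370%, 0.469% and 0.595% with LPS. Again the 6 SF3a1 libraries lay above the 5 control libraries. The usage rose 3.62-fold without LPS (log2 change 1.86, diffSpliceDGE adjusted p = 0.0249), while with LPS the change of 1.88 just missed the threshold (diffSpliceDGE adjusted p = 0.101). Without LPS the call was lost without control replicate 1 (diffSpliceDGE adjusted p = 0.127), 2 (0.101) or 3 (0.252) or without SF3a1 replicate 3 (0.274). Over the alternatives the adjusted p ran from 0.000562 to 0.341 without LPS, the latter by limma-voom, and from 0.0361 to 1 with LPS. Without LPS, Map2k2 and Map2k3 thus each used an intronic stretch before an exon more with SF3a1 siRNA, while the RNA of Map2k2 fell and that of Map2k3 rose.

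**Figure D4:**
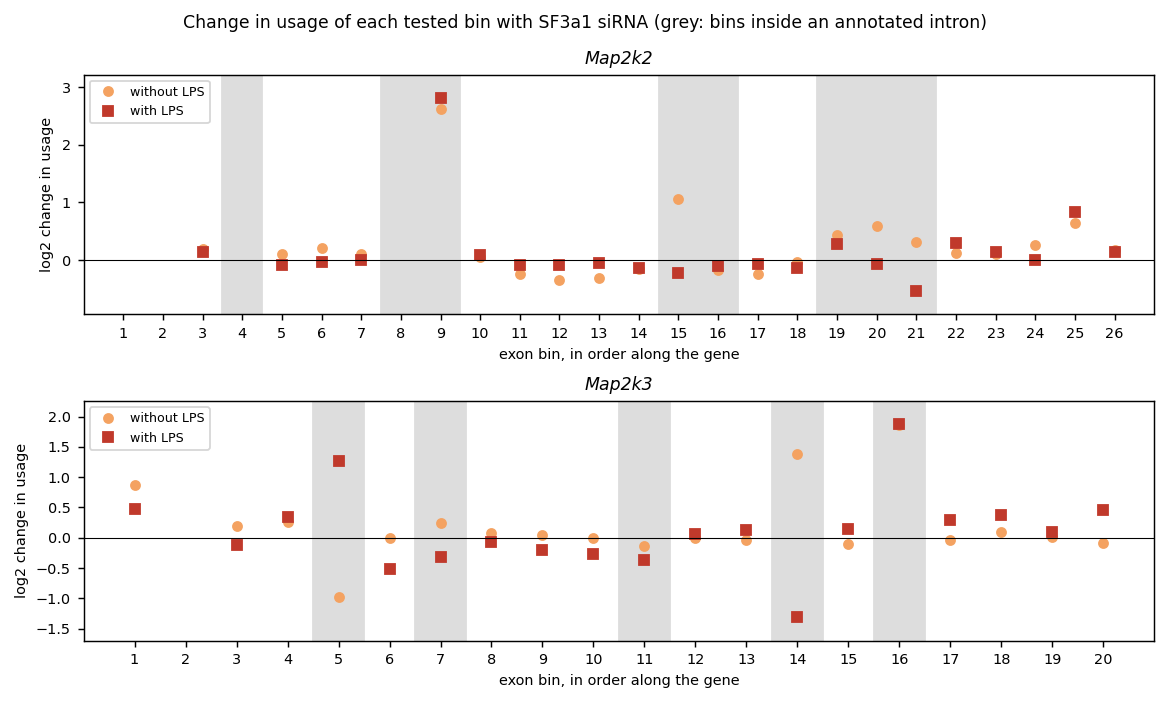
Log2 change in usage with SF3a1 siRNA for each tested bin of Map2k2 and Map2k3, in order along the gene, without and with LPS, with grey bands over bins inside an intron of at least 1 annotated transcript. Bin 9 of Map2k2 is at 2.61 and 2.82, and bin 16 of Map2k3 at 1.86 and 1.88. Other grey bins that were not called lie apart from 0 as well, such as Map2k3 bin 14 at 1.39 and −1.31, Map2k3 bin 5 at −0.97 and 1.28 and Map2k2 bin 15 at 1.06 and −0.22.

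Map2k6, the gene of MKK6 (chr11:110399122-110525522, forward strand), was measured at low counts. Its counts were 42, 53 and 48 in control libraries without LPS (0.963, 2.37 and 2.04 CPM) and 20, 5 and 2 with LPS (0.526, 0.397 and 0.112 CPM). With SF3a1 siRNA the counts were 17, 22 and 9 without LPS (0.620, 1.23 and 0.670 CPM) and 7, 8 and 4 with LPS (0.212, 0.484 and 0.193 CPM). In control cells all LPS libraries were below those without LPS. LPS lowered Map2k6 with control siRNA (log2 fold change −2.27, SE 0.566, edgeR adjusted p = 0.00935). Over the alternatives this change ran from −3.19 to −1.89, with an edgeR, DESeq2 or limma-voom adjusted p from 0.000969 to 0.0392. With SF3a1 siRNA the LPS change of −1.55 was not called (edgeR adjusted p = 0.168), nor was the change of −1.08 with SF3a1 siRNA without LPS (0.156). Both were called once the replicate number was added as a block (edgeR adjusted p = 0.0786 and 0.0683), with ranges over the alternatives from 0.0786 to 0.442 and from 0.0683 to 0.439.

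Map2k4, the gene of MKK4 (chr11:65688243-65788297, reverse strand), was at 37.1, 50.0 and 46.9 CPM in control cells without LPS and at 57.3, 59.5 and 64.0 CPM with LPS. Under SF3a1 siRNA it was at 57.0, 73.7 and 69.4 CPM without LPS and at 68.7, 65.6 and 74.3 CPM with LPS. The libraries of control cells without LPS lay below those of the 3 other groups. Map2k4 rose with SF3a1 siRNA without LPS (log2 fold change 0.58, SE 0.149, edgeR adjusted p = 0.0121) and with LPS in control cells (0.43, SE 0.149, edgeR adjusted p = 0.0488). The change with SF3a1 siRNA and LPS was 0.21 (edgeR adjusted p = 0.331), and that with LPS under SF3a1 siRNA was 0.06 (0.917). The LPS call was lost without replicate 1 of the control libraries without LPS (edgeR adjusted p = 0.145), without replicate 3 of those with LPS (0.130), or with no filter on low counts (0.194), and its adjusted p ran from 0.0109 to 0.194 over the alternatives.

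Map2k7, the gene of MKK7 (chr8:4238740-4247897, forward strand), ranged from 68.0 to 131 CPM over the 12 libraries, and its groups overlapped in every comparison. Replicate 1 was the highest in every group, at 107, 96.4, 113 and 131 CPM in control cells without and with LPS and in SF3a1 cells without and with LPS. The change with SF3a1 siRNA and LPS was 0.34 (edgeR adjusted p = 0.240), and it passed when replicate numbers entered the fit as a block (0.0440), with a range from 0.0440 to 0.627 over the alternatives.

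Mapk14, the gene of p38 alpha (chr17:28691329-28748406, forward strand), was at 118, 134 and 121 CPM in control cells without LPS and at 118, 133 and 124 CPM with LPS. In SF3a1 cells it was at 108, 112 and 89.1 CPM without LPS and at 123, 168 and 172 CPM with LPS. LPS raised Mapk14 with SF3a1 siRNA (log2 fold change 0.58, SE 0.152, edgeR adjusted p = 0.0365), where the groups did not overlap, while the control groups with and without LPS overlapped (0.01, edgeR adjusted p = 0.969). The call was lost without SF3a1 replicate 3 without LPS (edgeR adjusted p = 0.164) or replicate 2 (0.116) or 3 (0.119) with LPS, with a range from 0.00593 to 0.164 over the alternatives. Between siRNAs, Mapk14 changed by −0.27 without LPS (edgeR adjusted p = 0.225), where the libraries did not overlap, and by 0.30 with LPS (0.158), where they did. With replicates 2 and 3 only, the change without LPS was called (−0.34, edgeR adjusted p = 0.0966, range over the alternatives 0.0966 to 0.662). The change with LPS was called with the block (edgeR adjusted p = 0.0811) without SF3a1 replicate 1 with LPS (0.0412) and with replicates 2 and 3 only (0.0511), with a range from 0.0412 to 0.394 over the alternatives.

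Mapkapk2, the gene of MK2 (chr1:131053700-131097826, reverse strand), was at 731, 602 and 625 CPM in control cells without LPS and at 1845, 1922 and 2154 CPM with LPS. With SF3a1 siRNA it was at 697, 670 and 623 CPM without LPS and at 1626, 1941 and 2085 CPM with LPS. The libraries split by LPS with a wide gap, and the siRNA groups overlapped on both sides of it. LPS raised it 3.02-fold with control siRNA (SE 0.141 on the log2 scale, edgeR adjusted p = 3.56e-06) and with SF3a1 siRNA (1.51, SE 0.140, edgeR adjusted p = 1.91e-05). The change with SF3a1 siRNA was 0.02 without LPS (edgeR adjusted p = 0.927) and −0.07 with LPS (0.766).

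Mapk8, the gene of JNK1 (chr14:33377898-33447158, reverse strand), was at 32.8, 32.9 and 35.0 CPM in control cells without LPS and at 29.8, 28.6 and 33.4 CPM with LPS. In SF3a1 cells the level was at 34.7, 34.0 and 30.7 CPM without LPS and at 35.5, 43.0 and 37.3 CPM with LPS. All SF3a1 libraries with LPS lay above the control libraries with LPS, by a narrow gap, while the 2 groups without LPS overlapped. Mapk8 rose with SF3a1 siRNA and LPS (log2 fold change 0.33, SE 0.132, edgeR adjusted p = 0.0740). That call was lost without control replicate 1 (edgeR adjusted p = 0.126) or 2 (0.207), without SF3a1 replicate 2 (0.199) or 3 (0.105), and with no filter on low counts (0.364), with a range from 0.0427 to 0.364 over the alternatives.

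Whether the SF3a1 effect itself differed with LPS was tested as an interaction. None of the 10 genes was called by edgeR, where 3.47% of all genes tested were (1.54% higher and 1.94% lower). At an unadjusted edgeR p under 0.05 there were 3 of the 10, and 1968 of the 14983 genes tested. For Map2k1 the effect with LPS minus that without was −0.76 on the log2 scale (edgeR adjusted p = 0.135), for Map3k8 −1.04 (0.113) and for Mapk14 0.57 (0.248). With the block all 3 were called (edgeR adjusted p = 0.0122, 0.0380 and 0.0858), 1 higher and 2 lower, where 11.7% of all genes were. DESeq2 called 2 of the 10, Map2k1 (adjusted p = 0.0639) and Map3k8 (0.0260), and limma-voom called 0, where DESeq2 called 919 of 14997 genes and limma-voom 494 of 14983. No bin of the 10 genes was called for this difference or for LPS with either siRNA, where 0%, 0.0801% and 0.0254% of all bins tested were called. At an unadjusted diffSpliceDGE p under 0.05 there were 3, 1 and 1 of their 153 tested bins. Of all 153624 bins tested, 2071, 3025 and 1984 were under that p.

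A list of 48 other genes of the MAP kinase pathways gives the surroundings, of which 43 could be tested. Calls of this list are from the fit without the replicate block. With control siRNA, LPS raised 8 and lowered 11 of the 43, where 13.8% of all genes tested were called higher and 18.3% lower. With SF3a1 siRNA LPS raised 4 and lowered 2, beside 6.60% and 4.06% of all genes. SF3a1 siRNA raised 7 and lowered 9 without LPS, beside 13.7% and 20.1%, and raised 13 and lowered 10 with LPS, beside 18.4% and 20.4%. The counts by role below are a description, to be read against these shares, and no difference between roles was tested. The median log2 fold change of the 43 was −0.04, −0.02, 0.16 and 0.07 in these comparisons, and that of all genes tested −0.02, 0.01, −0.02 and −0.04. Among the 12 other MAP3K genes, LPS with control siRNA lowered 6 and raised 0, while SF3a1 siRNA raised 4 and lowered 2 without LPS and raised 6 and lowered 1 with LPS. Map3k14, the gene of the NF-κB-inducing kinase, rose with SF3a1 siRNA and LPS from 36.0 ± 5.85 to 91.4 ± 11.3 CPM (log2 fold change 1.34, edgeR adjusted p = 6.97e-05). Map3k7, the gene of TAK1, which acts upstream of the p38 and JNK arms, rose with SF3a1 siRNA without LPS (0.62, edgeR adjusted p = 0.0048) and with LPS (0.46, edgeR adjusted p = 0.0211). Map3k5, the gene of ASK1, fell with SF3a1 siRNA without LPS from 35.6 ± 4.47 to 15.0 ± 2.16 CPM (−1.26, edgeR adjusted p = 0.00361), as did Map3k6 from 3.19 ± 0.838 to 1.09 ± 0.240 CPM (−1.53, edgeR adjusted p = 0.00347).

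Map2k5, the gene of MEK5, fell with SF3a1 siRNA without LPS (log2 fold change −1.04, edgeR adjusted p = 0.000541) and with LPS (−0.95, edgeR adjusted p = 0.000838). Mapk9, the gene of JNK2, fell with LPS in control cells from 55.3 ± 0.916 to 42.8 ± 0.785 CPM (−0.37, edgeR adjusted p = 0.0302) and was higher with SF3a1 siRNA and LPS at 51.8 ± 1.30 CPM (0.28, edgeR adjusted p = 0.0874). Of the 12 genes of the RAF and ERK arm, SF3a1 siRNA lowered 4 and raised 0 without LPS, beside 20.1% and 13.7% of all genes tested. With LPS it lowered 5 and raised 2 of them, beside 20.4% and 18.4%. Both partners of TPL2 on the list rose with LPS in control cells: Nfkb1, whose p105 product holds TPL2 inactive, from 234 ± 20.3 to 1307 ± 87.9 CPM (2.48, edgeR adjusted p = 1.40e-07), and Tnip2. Nfkb1 also rose with LPS under SF3a1 siRNA (1.90, edgeR adjusted p = 3.99e-06), and with LPS it was lower with SF3a1 siRNA than with control siRNA (−0.40, edgeR adjusted p = 0.0475).

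Of 7 genes of substrates and transcriptional targets, 4 rose and 1 fell with LPS in control cells, beside 13.8% and 18.3% of all genes tested. Under SF3a1 siRNA, 2 rose and 0 fell with LPS, beside 6.6% and 4.06%. SF3a1 siRNA raised 2 and lowered 0 of the 7 without LPS, beside 13.7% and 20.1% of all genes. With LPS it raised 3 and lowered 1, beside 18.4% and 20.4%. Zfp36, which encodes the mRNA-destabilising protein tristetraprolin, a substrate of MK2, rose with LPS in control cells from 44.0 ± 18.9 to 400 ± 176 CPM (log2 fold change 3.18, edgeR adjusted p = 0.000516) and with LPS under SF3a1 siRNA (1.52, edgeR adjusted p = 0.0823). Its change with SF3a1 siRNA was 0.73 without LPS (edgeR adjusted p = 0.294) and −0.93 with LPS (0.163). Ksr1, the gene of an ERK scaffold, rose with LPS in control cells (2.28, edgeR adjusted p = 0.0101) and under SF3a1 siRNA (1.67, edgeR adjusted p = 0.0950), at a mean of 2.13 CPM over all libraries. Rps6ka5, the gene of MSK1, fell with LPS in control cells from 14.4 ± 3.56 to 2.71 ± 0.485 CPM (−2.40, edgeR adjusted p = 0.000809). Fos and Egr1, immediate early genes downstream of ERK, went opposite ways with SF3a1 siRNA under LPS: Fos rose from 181 ± 6.15 to 544 ± 75.3 CPM (1.59, edgeR adjusted p = 7.03e-05) and Egr1 fell from 88.5 ± 20.7 to 12.2 ± 6.24 CPM (−2.84, edgeR adjusted p = 0.000487). Fos also rose with SF3a1 siRNA without LPS (1.84, edgeR adjusted p = 4.29e-05). Egr1 (−2.47, edgeR adjusted p = 0.0539) and Map3k6 (1.96, edgeR adjusted p = 0.0463) were the genes of the list called for the difference between the SF3a1 effects with and without LPS.

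**Figure D5:**
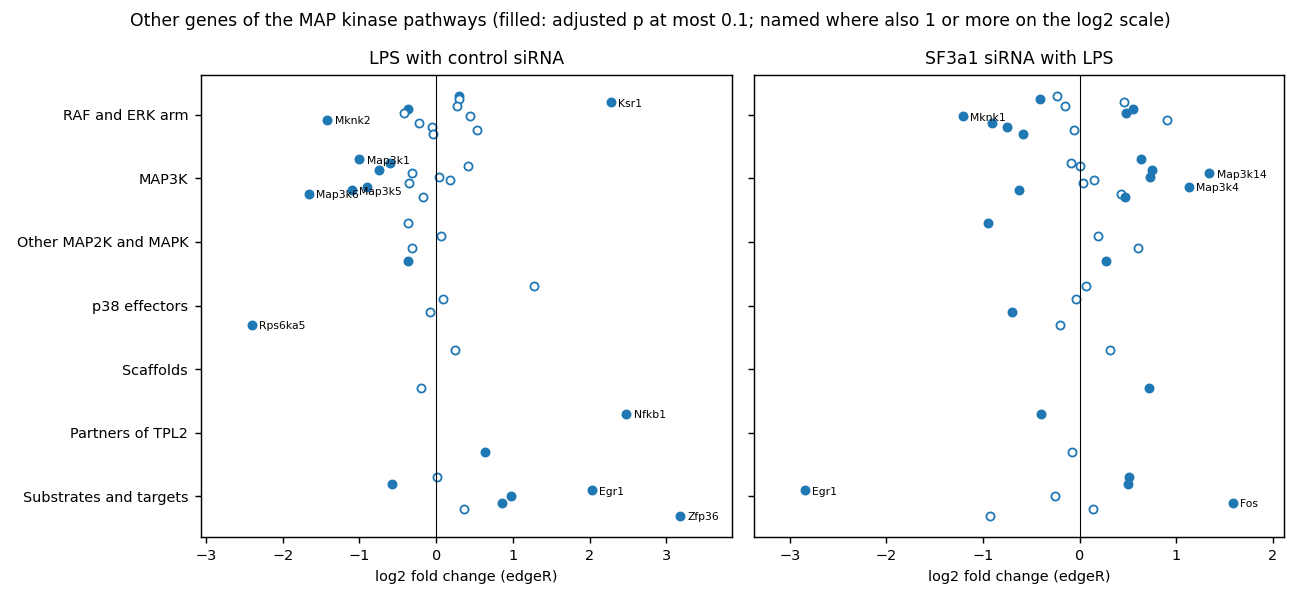
Log2 fold changes of the 43 other MAP kinase pathway genes tested, grouped by role, for LPS with control siRNA and for SF3a1 siRNA with LPS. Filled points have an adjusted p of 0.1 or less and are named where the change is at least 1 on the log2 scale, and Egr1 is at 2.03 in the first comparison and at −2.84 in the second.

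As a description of likeness, the log2 CPM of Map3k8, which had the largest fitted LPS change of the 10 in control cells by the edgeR fit but not under every alternative, was close over the 12 libraries to that of Enpp4 (Pearson r = 0.982) and Cebpd (0.979), among the 9304 genes that averaged 10 CPM or more. For Map2k6, whose fitted change with SF3a1 siRNA without LPS was the largest of the 10 by the edgeR fit but was not called and was smaller than that of Map2k3 under some alternatives, the closest were Umps (0.921), Tle1 (0.912) and Ing1 (0.897). The 12 libraries share the LPS and siRNA groups and the replicate numbers, which enter these values.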

How the data were processed

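The authors sequenced polyadenylated RNA on the Ion Proton, used GSNAP to align reads of at least 30 nt to the mm10 build, and retained only reads with 1 place in the genome. They made the deposited counts with htseq-count, per gene of an Ensembl annotation, and with the DEXSeq counting script, per exon bin, so both deposited units are whole-number counts. Whether counting used strand is not given in the sources used here. Runs of replicate 1, sequenced in 2 runs in each group, were pooled in the deposited counts. Reads on no gene, between 17.8% and 27.2% per library, stayed out of library sizes.

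From these counts, edgeR 4.0.16 in R 4.3.3 (limma 3.58.1, DESeq2 1.42.0) gave TMM-scaled CPM and quasi-likelihood tests over all 12 libraries in 1 fit of the 4 groups, after filterByExpr, at an adjusted p of 0.1. Bins were tested with diffSpliceDGE over 11 libraries. Bin coordinates were rebuilt from GENCODE vM21 transcripts (mm10) and matched 31629 of 37223 units (85.0%), including 7 of the 10 genes. The steps were tested on simulated data. Samples were grouped by their GEO labels. Replicate pairs of a group differed by more than counting noise in all 12 cases, and p-values measure the spread between these libraries.

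Same-numbered libraries deviated together from their group means: all 18 pairs correlated over 0.1 across the 14983 genes (lowest 0.143, median 0.356), and 17 of 18 over the 9304 genes with a mean of 10 CPM or more (lowest 0.0956). The numbers were taken as pairing the libraries. For the 10 genes and their called bins, values with the replicate number as a block are given where they change a call. The list of other MAP kinase pathway genes is given without the block.

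The 10 genes and the lists were chosen with earlier results of these data known. All 10 genes are named, with each of their bins called in any comparison. Of the wider list, the 3 called genes of largest change per comparison with a mean of at least 1 CPM are named, with genes that share a cascade step with one of the 10. For likeness to Map3k8 and Map2k6 the 3 genes of highest correlation were taken, of which 1 is not reported here. Alternatives were RLE scaling, no filter on low counts, a stricter bin filter (30 counts in 2 libraries), DESeq2, limma-voom, the block, each library left out, and, added after seeing the data, replicates 2 and 3 only.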

Additional observations from a re-analysis of the deposited data

Results flagged for a closer look

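For 3 genes the effect of SF3a1 siRNA differed between cells with and without LPS, by the test of the difference itself once the replicate number was a block, where 11.7% of all genes tested were called. For Map2k1 the effect with LPS minus that without was −0.76 on the log2 scale, with an edgeR adjusted p of 0.135 without the block and 0.0122 with it. For Map3k8 the difference was −1.04, with an edgeR adjusted p of 0.113 without the block and 0.0380 with it. For Mapk14 it was 0.57, with an edgeR adjusted p of 0.248 without the block and 0.0858 with it. Mapk14 was lower with SF3a1 siRNA in all 3 pairs of same-numbered libraries without LPS and higher in all 3 with LPS. Over the alternatives the edgeR, DESeq2 or limma-voom adjusted p ran from 0.0122 to 0.261 for Map2k1, from 0.0260 to 0.236 for Map3k8 and from 0.0743 to 0.533 for Mapk14.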

How the results depend on the processing

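With the replicate block the genes called were 3115 for LPS with SF3a1 siRNA and 1756 for the difference of the SF3a1 effects, where the unblocked counts were 1598 and 520. The difference gave 930 genes with no filter on low counts, 919 with DESeq2 and 1012 with replicates 2 and 3 only, and 2 of the 10 genes with DESeq2, 3 with the block and 2 with replicates 2 and 3 only. The block raised the genes with a called bin to 129 and 35 for LPS with control and SF3a1 siRNA, to 1217 and 1102 for SF3a1 siRNA without and with LPS, from 49, 11, 653 and 534. For the difference, genes with a called bin numbered 1 with limma-voom, 1 with the block and 2 with replicates 2 and 3 only, from 0. Called bins of the 10 genes numbered 1 with limma-voom for SF3a1 siRNA without LPS. With LPS they numbered 2 with the stricter filter, 2 with RLE scaling, 0 with limma-voom and 0 with replicates 2 and 3 only. Map2k2 bin 9 and Map2k3 bin 16 reached the 30 counts of the stricter filter in no control library. They therefore passed it through SF3a1 libraries alone. Map2k2 bin 9 passed the main filter on low counts in the same way. Beyond the calls named beside the results, the block changed no other call of the 10 genes or the 2 bins.

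Some signs turned. With replicates 2 and 3 only, the LPS change with control siRNA was −0.34 for Map2k3 and 0.046 for Map2k7, that with SF3a1 siRNA was −0.034 for Map2k3 and −0.032 for Map2k4, and the SF3a1 change with LPS was 0.46 for Map2k6. Mapk14 for LPS with control siRNA was −0.011 with no filter, and Mapk8 for SF3a1 siRNA without LPS was 0.047 with RLE scaling and 0.050 with DESeq2. Map2k2 bin 9 was 0.36 for LPS with SF3a1 siRNA with replicates 2 and 3 only, and −0.11 for the difference with limma-voom. Map2k3 bin 16 for the difference was −0.10 with the block and −0.35 with replicates 2 and 3 only. The cause was not tested.

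Leaving out 1 library at a time gave, for LPS with control siRNA, LPS with SF3a1 siRNA, SF3a1 siRNA without LPS, SF3a1 siRNA with LPS and the difference, 3985 to 5023, 1050 to 2005, 3881 to 5627, 4744 to 5993 and 273 to 711 genes called. It gave 4 to 5, 3 to 4, 3 to 4, 4 to 6 and 0 to 1 of the 10 genes, 23 to 60, 7 to 13, 382 to 768, 83 to 603 and 0 to 3 genes with a called bin, and 0 to 3 and 0 to 2 bins of the 10 genes for SF3a1 siRNA without and with LPS. Log2 changes that turned ranged, for LPS with control siRNA, from −0.22 to 0.27 (Map2k3), −0.16 to 0.19 (Map2k7), −0.034 to 0.074 (Mapk14) and −0.091 to 0.83 (Map2k3 bin 16). For LPS with SF3a1 siRNA they ranged from −0.11 to 0.26 (Map2k2), −0.058 to 0.35 (Map2k3), −0.042 to 0.14 (Map2k4), −0.066 to 0.23 (Map2k7) and −0.36 to 0.21 (Map2k2 bin 9). For SF3a1 siRNA without LPS they were −0.41 to 0.049 (Map3k8), −0.049 to 0.10 (Mapk8) and −0.011 to 0.21 (Mapkapk2), and with LPS −0.82 to 0.24 (Map2k6) and −0.14 to 0.030 (Mapkapk2). For the difference they were −0.31 to 0.062 (Map2k2), −0.16 to 0.44 (Map2k3), −0.11 to 0.27 (Map2k7), −0.24 to 0.0041 (Mapkapk2), −0.10 to 0.63 (Map2k2 bin 9) and −0.50 to 0.42 (Map2k3 bin 16). Low counts limit Map2k6 and both bins.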
